A study of Rattus norvegicus with 6 samples.

Results

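The liver transcriptome of rats on a high protein diet low in fat (HP) was set against that of rats on the matching normal protein diet (NP). The comparison uses 2 of the study's 6 arrays, those titled for HP and NP, and it is the plain difference of their deposited log2 values. Adult male Wistar rats, 30 in all, ate 1 of 6 diets that combined 2 protein levels with 3 backgrounds. One background was low in fat, another was rich in sucrose (HS), and the last was rich in both sucrose and fat (HS-HF). Every sample's source field speaks of mice, but its organism field and housing protocol name rats, which is how they are treated here. All rats first had 10 days on the normal protein diet, then 5 weeks on their own diet, between 33 and 37 days, and were killed in the fed state, 2 h after a measured meal of 87.6 kJ. Each array carried pooled liver RNA of 5 rats, 1500 ng per rat, so a value is that of a pool and no spread between animals can be had. With 1 array per diet there are no replicates behind any value below, no difference has an error or a test, and what each difference owes to the diet, to the rats pooled or to the array cannot be told apart. Nutrient contents are not used here. The values are log2 expression levels per probe set, so a difference of 1 is a doubling; levels are compared between arrays for the same probe set and never between genes.

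Protein eaten beyond what the body needs for synthesis is broken down, mostly in the liver. Transaminases and specific catabolic enzymes strip the nitrogen, the urea cycle disposes of it, and the carbon skeletons enter gluconeogenesis, the citric acid cycle or lipid synthesis. The liver is also the main site of fatty acid synthesis from dietary carbohydrate, a pathway driven by insulin and glucose through SREBP-1c and ChREBP, and a major site of cholesterol synthesis, which is governed by the sterol sensor formed by SCAP, the INSIG proteins and SREBP-2.

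The difference between HP and NP was small for most of the transcriptome. The HP and NP arrays correlated at 0.9956 over all 29214 probe sets (0.9949 to 0.9964 over all pairs of the 6 arrays), and their medians were 6.22 and 6.24. Of the 20450 probe sets whose mean level lay above the 30th percentile, log2 5.14, those at 1.5-fold or more were 151 higher in HP (0.738%) and 131 lower (0.641%). At 1.2-fold or more, 1279 were higher (6.25%) and 1260 lower (6.16%). The median difference was -0.0024, and the SD of the differences over probe sets was 0.193. The 2 other backgrounds gave counts of a like size: 178 higher (0.87%) and 107 lower (0.523%) for HP-HS minus NP-HS, and 171 higher (0.836%) and 135 lower (0.66%) for HP-HS-HF minus NP-HS-HF. Named genes, taken as 1 probe set for each of 11421 symbols, gave 73 higher (0.64%) and 48 lower (0.42%) at 1.5-fold. At 2-fold they gave 17 higher and 12 lower. The counts of gene lists at 1.5-fold below are to be read beside these shares. Another 157 probe sets past 1.5-fold were among the 8356 with no symbol or several, in which the share past the threshold was 1.88%, against 1.06% of the named genes; the rest were further probe sets of named genes. Large differences were not confined to faint probe sets: in 5 classes of 4090 probe sets each, from the faintest to the brightest, 1.54, 1.52, 1.74, 0.905 and 1.2% were past 1.5-fold.

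**Figure D1:**
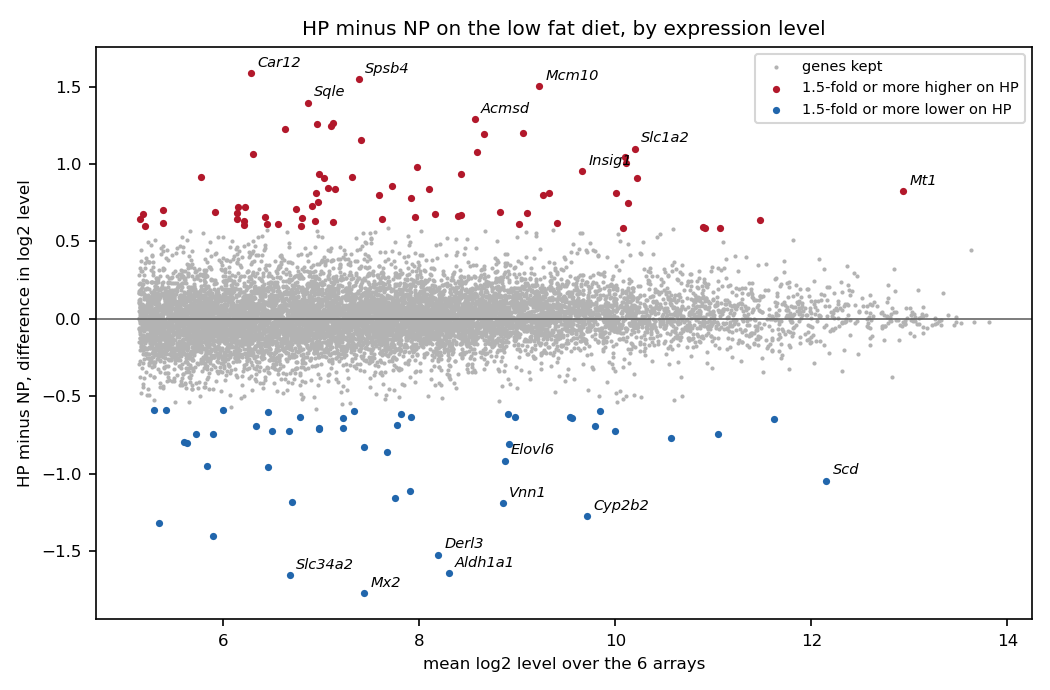
Difference HP minus NP on the low fat diet (log2, vertical axis) against the mean log2 level over the 6 arrays (horizontal axis), 1 point per named gene kept. A line marks 0, genes at 1.5-fold or more are coloured, and some of the genes with the largest differences are labelled. The 73 higher and 48 lower genes lie at low as well as high levels, and the cloud is centred near 0.

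Cholesterol synthesis had the largest median difference of the pathway lists on the low fat background. Of its 18 enzymes on the array, 17 had a higher level in HP than in NP, 9 by 1.2-fold or more and 3 by 1.5-fold or more, and none was lower by 1.2-fold. The median difference was 0.26, where the median of all 11421 genes was 0.0064, 51.7% of all genes were above 0, and 5.93% were higher by 1.2-fold or more and 4.26% lower. Enzymes that act after squalene has formed led the list. Sqle, squalene epoxidase, had a level of 7.21 in HP and 5.81 in NP, a difference of 1.40, or 2.63-fold. Tm7sf2, a sterol C14 reductase, had 8.90 in HP and 7.82 in NP, 2.11-fold higher. Msmo1, which removes methyl groups from the sterol nucleus, had 9.43 in HP and 8.63 in NP, 1.74-fold higher. Further down came Cyp51 (0.55), Dhcr7 (0.54) and Idi1 (0.49), all enzymes of the same route. The lowest member, Mvd, was at -0.03.

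For most of these genes it was the NP array that stood apart. Msmo1 lay between 9.28 and 9.48 on HP and the 4 high sucrose arrays and at 8.63 in NP alone. Of the 18 enzymes, 12 were lower in NP than on all 4 high sucrose arrays, and HP was above those arrays for 4 and below them for 3. Over all 11421 genes NP lay below the 4 high sucrose arrays for 2225 and above them for 2128, and HP lay above them for 2129 and below them for 1833. On the other backgrounds the same list had medians of 0.10 (HS) and 0.07 (HS-HF), with 14 of 18 above 0 in each. By 1.5-fold or more, 0 enzymes were higher on HS and 2 on HS-HF. Sqle was higher by 0.46 on HS and 0.62 on HS-HF, and Tm7sf2 by 0.51 and 0.59, while Msmo1 differed by 0.07 on each. No test can be made of the difference between backgrounds, since each rests on 1 pair of arrays.

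Genes around the sterol sensor showed a smaller shift of the same sign on low fat. Of 17 genes of sterol sensing, uptake and export, 15 were above 0, 4 were higher by 1.2-fold or more and none lower, and the median was 0.09. On high sucrose the median was -0.02 with 6 of 17 above 0, and with high fat it was -0.05 with 5 of 17 above 0. Insig1, which holds SREBP proteins in the endoplasmic reticulum and is itself an SREBP target, had 10.04 in HP and 9.08 in NP, 1.94-fold higher, and a further probe set for Insig1 differed by 0.89. Insig1 was also higher by 0.91 on high sucrose and by 0.22 with high fat. Stard4, a carrier of cholesterol between membranes, had 7.57 in HP and 7.22 in NP, and Srebf2, which encodes SREBP-2, had 8.84 in HP and 8.65 in NP.

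Several genes of fatty acid synthesis from carbohydrate were lower in HP, while Fads1 and Elovl2, of polyunsaturated fatty acid synthesis, were higher. Among 23 genes for making fatty acids and triglycerides, 4 were lower by 1.5-fold or more and none was higher, while 7 were lower and 4 higher by 1.2-fold or more, around a median of -0.09. By 1.5-fold or more, 0.42% of all named genes were lower. Scd, the stearoyl-CoA desaturase that makes oleate, had 11.74 in HP and 12.79 in NP, 2.06-fold lower in HP. Elovl6, which lengthens palmitate to stearate, had 8.52 in HP and 9.44 in NP, 1.89-fold lower. Pnpla3, a lipid droplet protein whose gene is switched on by carbohydrate feeding, had 6.18 in HP and 7.13 in NP, 1.94-fold lower. These 3 genes were lower in HP together with the malic enzyme Me1, which supplies NADPH and had 7.39 in HP and 8.08 in NP. Fasn, fatty acid synthase, had 10.39 in HP and 10.91 in NP.

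The members of that list on the other side were Fads1, the delta-5 desaturase (12.03 in HP, 11.52 in NP), Elovl2, which lengthens polyunsaturated fatty acids (9.63 in HP, 9.24 in NP), Acacb, the mitochondrial acetyl-CoA carboxylase (7.88 in HP, 7.38 in NP), and Lpin2, a phosphatidate phosphatase, at a difference of 0.27. NP was again the outlying array: it lay above all 4 high sucrose arrays for 11 of the 23 genes and below them for 7. Elovl6 and Pnpla3 differed by 0.04 and 0.19 on the high sucrose background and by 0.04 and 0.01 with high fat. Scd did differ there, by -0.36 and -1.34, and Me1 by -0.57 and -0.44. Glycolysis had 3 of 19 genes lower by 1.2-fold or more and none higher, among them Pklr, the liver pyruvate kinase, with 10.13 in HP and 10.62 in NP, and Gckr, the regulator of glucokinase, with 8.71 in HP and 9.13 in NP. Pklr differed by -0.49 on high sucrose and by -0.48 with high fat as well.

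Some enzymes of amino acid breakdown were higher in HP, while whole lists of them ranged from a median of 0.23 down to -0.02. The list of glutamate, alanine, aspartate and proline breakdown had a median of 0.23, with 11 of 12 genes above 0 and 5 higher by 1.2-fold or more. Got1, the cytosolic aspartate aminotransferase, had 11.81 in HP and 11.17 in NP, 1.55-fold higher. Oat, ornithine aminotransferase, had 11.13 in HP and 10.54 in NP, a difference of 0.59. Gpt, alanine aminotransferase, had 9.69 in HP and 9.26 in NP, and the liver glutaminase Gls2 and the proline dehydrogenase Prodh differed by 0.40 and 0.37. Got1 was higher on every background, by 0.89 on high sucrose and 0.54 with high fat.

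In serine, glycine and threonine breakdown, 3 of 17 genes were higher by 1.2-fold or more and none lower, around a median of 0.04. They were Sds, serine dehydratase (11.43 in HP, 10.84 in NP), Gldc of the glycine cleavage system (9.36 in HP, 8.82 in NP) and Agxt, which transaminates glyoxylate and alanine (10.08 in HP, 9.60 in NP). Tat, the tyrosine aminotransferase, differed by 0.32 and Hal, histidine ammonia-lyase, by 0.33, while Ftcd, the other histidine gene measured, was at -0.03. Of 5 genes of lysine breakdown none was past 1.2-fold, and 3 were above 0. Among 17 genes of branched-chain amino acid breakdown, Dbt, a subunit of the branched-chain ketoacid dehydrogenase, and Mccc2 of leucine breakdown differed by 0.35 and 0.33, with 3 genes higher by 1.2-fold or more and 7 of 17 below 0. Sulfur amino acid genes went both ways, with a median of -0.02 and 10 of 17 below 0: 4 of 17 were higher and 1 was lower by 1.2-fold or more, the lower gene being Sqor, the sulfide oxidase of mitochondria, with 9.76 in HP and 10.25 in NP.

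The largest difference of an amino acid enzyme was that of Acmsd. This decarboxylase sends a tryptophan breakdown product towards oxidation and away from NAD synthesis. Acmsd had 9.02 in HP and 7.73 in NP, 2.44-fold higher, and its differences were 0.96 on high sucrose and 0.64 with high fat. Of 17 genes of tryptophan breakdown and NAD synthesis, 13 were above 0 and 3 were higher by 1.2-fold or more, with Nnmt, which methylates nicotinamide, at 0.42 and Qprt, on the NAD side of the branch, at -0.22.

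The urea cycle showed small differences, mostly towards higher levels in HP. Of 11 genes of the cycle and of ammonia handling, 10 were above 0 and 5 were higher by 1.2-fold or more, with a median of 0.17 and none past 1.5-fold. Asl, argininosuccinate lyase, had 11.30 in HP and 10.91 in NP. Rhbg, an ammonia transporter, had 7.30 in HP and 6.86 in NP, and Car5a, the mitochondrial carbonic anhydrase that feeds bicarbonate to the cycle, had 8.16 in HP and 7.79 in NP. Nags, whose product activates Cps1, and the ornithine carrier Slc25a15 differed by 0.31 and 0.30. Cps1, Otc and Arg1 differed by 0.08, 0.05 and 0.04. Gluconeogenesis as a list was flat, with a median of -0.02 over 16 genes, and 1 of them past 1.2-fold: Pck1, the phosphoenolpyruvate carboxykinase, with 12.45 in HP and 12.11 in NP.

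Amino acid transporters held 3 of the larger differences. Of 25 plasma membrane amino acid transporters that passed the level filter (3 more were below it), 3 were higher by 1.5-fold or more, and 7 were higher and 2 lower by 1.2-fold or more. The share of all named genes higher by 1.5-fold or more was 0.64%. Slc1a4, an exchanger of small neutral amino acids, had 7.76 in HP and 6.61 in NP, 2.22-fold higher. Slc1a2, the main glutamate transporter, had 10.59 in HP and 9.49 in NP, 2.14-fold higher. Slc16a10, which carries aromatic amino acids, had 10.49 in HP and 9.68 in NP, 1.76-fold higher. All were higher on the other backgrounds too, Slc1a4 by 1.06 on high sucrose and 2.38 with high fat, Slc1a2 by 1.02 and 0.68, and Slc16a10 by 1.00 and 0.27. The carriers Slc13a2 and Slc13a5, of dicarboxylates and citrate, are outside that list: Slc13a2 had 8.75 in HP and 7.82 in NP, and Slc13a5 had 7.11 in HP and 6.46 in NP.

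Slc1a2, Slc1a4, Rhbg and Oat are also expressed mainly around the central vein of the liver lobule. In the list of 17 pericentral genes that holds them, 3 were higher by 1.5-fold or more, 8 by 1.2-fold or more and none lower by 1.2-fold, with a median of 0.11. Among the others, Tbx3 was at 0.56, while Axin2, Lgr5 and Cyp2e1, also pericentral, were at 0.05, 0.01 and 0.01. Of 14 periportal genes, 6 were higher by 1.2-fold or more and none lower, with a median of 0.12. These were the enzymes Sds, Gls2, Asl, Pck1 and Hal given above, and Cdh1 at 0.30.

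The 3 named genes with the largest differences towards higher levels belong to none of these pathways. Car12, a membrane-bound carbonic anhydrase, had 6.94 in HP and 5.36 in NP, 3.01-fold higher, and 2.33 and 1.70 log2 units higher on high sucrose and with high fat. Spsb4, a substrate receptor of a ubiquitin ligase, had 8.03 in HP and 6.48 in NP, 2.92-fold higher. Mcm10, a replication initiation factor, had 10.02 in HP and 8.51 in NP, 2.83-fold higher. Of the 23 genes of DNA replication and cell division kept (14 more were below the level filter), Mcm10 was the only member past 1.5-fold, and the median of the list was -0.07. Outside that list, Rfc4, also of DNA replication, had 5.31 in HP and 6.11 in NP, 1.75-fold lower in HP. Car2, the cytosolic carbonic anhydrase, had 8.66 in HP and 7.68 in NP, 1.97-fold higher, and 7 of the 14 carbonic anhydrases were above 0. Noct, nocturnin, whose messenger cycles through the day, had 9.66 in HP and 8.47 in NP, 2.29-fold higher. The clock list around it was flat, with a median of 0.004 over 16 genes, and Bmal1 at 0.43 and Nr1d1 at -0.30.

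Other genes higher by 2-fold or more were Lox, which crosslinks collagen (6.67 in HP, 5.41 in NP), Nqo1, a quinone reductase (9.06 in HP, 7.86 in NP), Plppr1 (7.62 in HP, 6.37 in NP), Mmd2 (7.34 in HP, 6.12 in NP), Gria3, a glutamate receptor subunit (6.64 in HP, 5.57 in NP), and Cdh17, a cadherin (10.50 in HP, 9.49 in NP). Tmod1 (7.77 in HP, 6.51 in NP) and Upp2 (10.54 in HP, 9.50 in NP) were too, and each had the opposite sign on another background. Nqo1 was at -0.23 on high sucrose and 0.65 with high fat. Lox had its lowest level of the 6 arrays in NP and its next lowest in HP. Of 34 conjugating and antioxidant genes grouped with Nqo1, 3 were higher and 3 lower by 1.2-fold or more, and Gclc and Gclm, which make glutathione, were at -0.08 and -0.01.

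**Figure D2:**
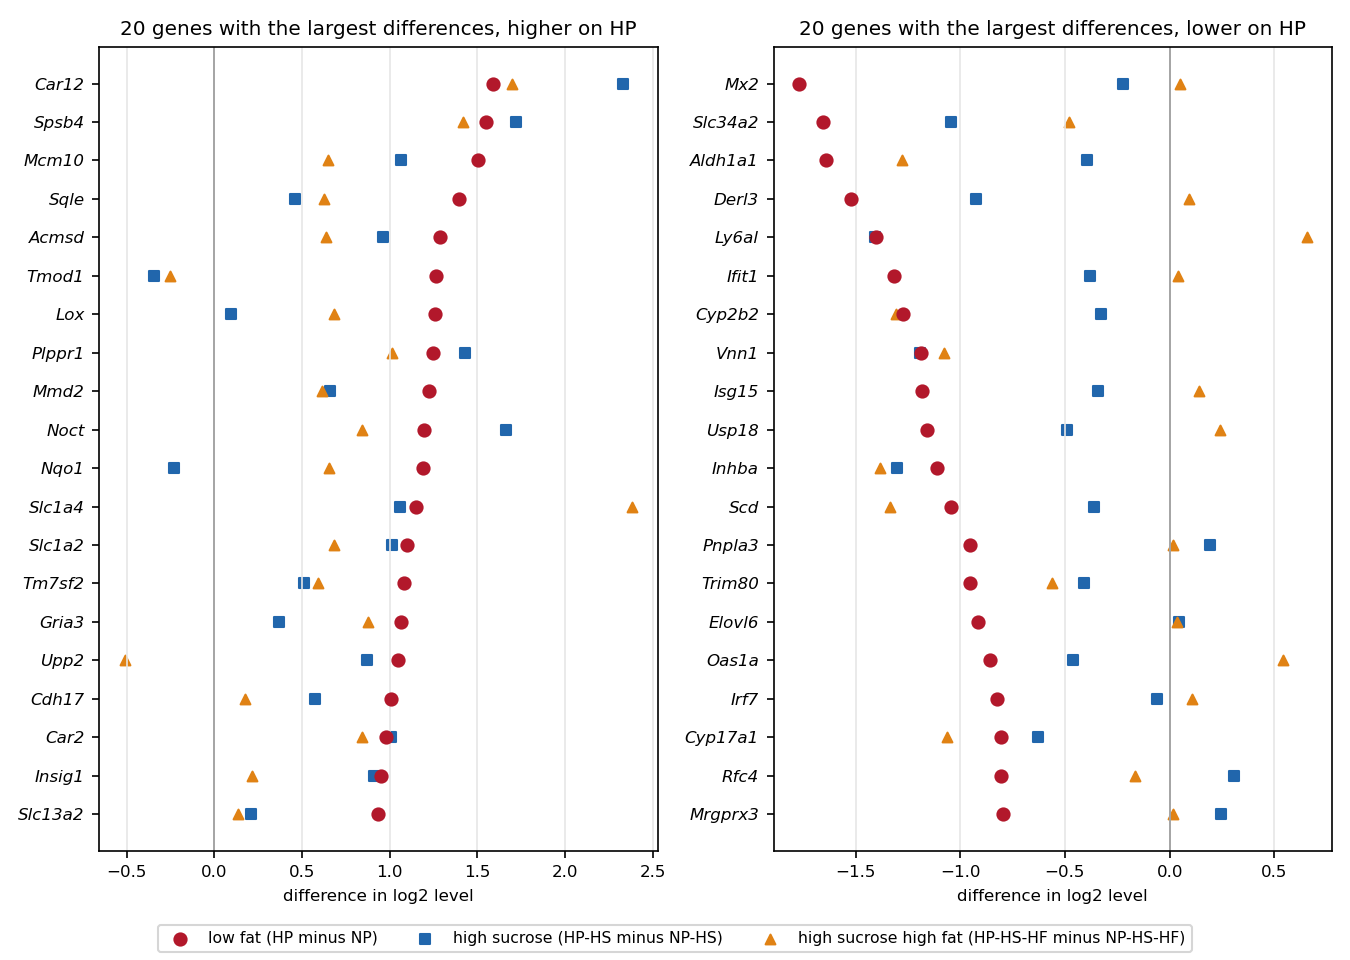
Log2 difference HP minus NP for the 20 named genes with the largest positive and the 20 with the largest negative difference on the low fat diet, with the same difference on the HS and HS-HF backgrounds beside it, 1 symbol for each background. Car12, Spsb4 and Plppr1 lie far to the right on all 3 backgrounds, whereas Pnpla3 and Elovl6 lie far to the left on low fat alone. Mx2, Ifit1 and Isg15 lie far to the left on low fat, at -0.22, -0.38 and -0.34 on HS, and at 0.05, 0.04 and 0.14 on HS-HF.

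Interferon-stimulated genes, the antiviral genes switched on by type I interferon, held the largest single difference towards lower levels. Of 48 members kept, 9 were lower by 1.5-fold or more and none higher, and 14 were lower and 1 higher by 1.2-fold or more. Over all named genes 0.42% were lower and 0.64% higher by 1.5-fold or more, and 4.26% lower and 5.93% higher by 1.2-fold or more. Mx2, a GTPase that restricts viruses, had 7.26 in HP and 9.03 in NP, 3.41-fold lower in HP. Ifit1, which binds foreign RNA ends, had 5.18 in HP and 6.50 in NP, 2.49-fold lower. On the high sucrose arrays Ifit1 lay between 4.95 and 5.32, so outside NP it was near the cutoff of the level filter. Its mean over all arrays, 5.35, was the lowest of the list. Isg15, a ubiquitin-like modifier, had 6.50 in HP and 7.69 in NP, 2.27-fold lower. Usp18, the protease that removes ISG15 from proteins, had 7.90 in HP and 9.05 in NP, 2.23-fold lower. Irf7, the transcription factor that amplifies the response, had 7.47 in HP and 8.30 in NP, 1.77-fold lower. Oas1a, a sensor of double-stranded RNA, had 7.71 in HP and 8.57 in NP, 1.81-fold lower; Oas1a and Oas1b (-0.74) come from a family of near-identical copies, so their probe sets may not tell them apart. The remaining members past 1.5-fold were Herc6 at -0.71 and Mx1 at -0.59.

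For this list too the NP array lay outside the rest. Mx2 stood at 9.03 in NP, against 7.26 in HP and between 6.91 and 7.33 on the 4 high sucrose arrays. NP was above all 4 high sucrose arrays for 29 of the 48 genes and below them for 2, and HP was above them for 12 and below them for 3. The list was not uniform: 15 of 48 were above 0, the median was -0.12, Irf1 was at 0.30 and Rsad2, another antiviral gene, at 0.17. Its medians on the other backgrounds were -0.12 on high sucrose and 0.05 with high fat. Since liver contains several cell types, fewer cells of a type and less RNA per cell cannot be told apart in such pools.

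The promoters of 2 interferon genes are shown because both carry the interferon-stimulated response element, searched on both strands as TTTC, any 2 bases and TTTC. Of the 36 list members with an entry in the RefSeq promoter table (build GRCr8, 250 bases before to 50 after the start), 23 held it, 63.9%, against 3.92% of all 33469 promoters. Mx2, Ifit1, Isg15 and Usp18 had no entry. Of the members with an entry that were lower by 1.5-fold or more, 3 held the element and 2, Mx1 and Herc6, did not. The 23 members with the element had a median difference of -0.15 and the 13 without it of 0.04. Members of such a list are known through this element, so its frequency among them is a description. The 250 bases before the start are given 5′ to 3′ on the gene's strand, with capitals marking the element: Irf7 at chr1:205800024-205800273, minus strand, and Oas1a at chr12:41330216-41330465, plus strand. In Irf7 the match begins 69 bases before the start. In Oas1a there are 2 overlapping matches on the opposite strand, beginning 41 and 35 bases before the start.
Irf7: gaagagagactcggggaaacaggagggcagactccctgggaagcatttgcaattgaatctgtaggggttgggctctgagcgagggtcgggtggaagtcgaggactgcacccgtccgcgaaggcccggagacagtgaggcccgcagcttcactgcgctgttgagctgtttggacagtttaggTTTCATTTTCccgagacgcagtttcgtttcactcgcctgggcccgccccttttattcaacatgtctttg
Oas1a: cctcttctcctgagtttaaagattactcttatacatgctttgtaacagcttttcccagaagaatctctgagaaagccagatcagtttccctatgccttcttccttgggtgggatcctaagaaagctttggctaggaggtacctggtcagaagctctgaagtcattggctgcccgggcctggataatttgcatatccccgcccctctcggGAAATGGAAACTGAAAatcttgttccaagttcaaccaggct

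Genes of the endoplasmic reticulum (ER), which fold and quality-check secreted proteins, were lower in HP as a group. Of 30 members, 25 were below 0, 9 were lower by 1.2-fold or more and none higher, and the median was -0.14. Derl3, which helps to move misfolded proteins out of the ER, had 7.82 in HP and 9.34 in NP, 2.87-fold lower in HP. Creld2, an ER stress-inducible protein, had 9.32 in HP and 9.96 in NP, 1.56-fold lower. The chaperones Hyou1 (10.14 in HP, 10.64 in NP) and Dnajb11 (9.82 in HP, 10.30 in NP) and the ER protein Sdf2l1 (8.99 in HP, 9.44 in NP) followed. Hspa5, the chaperone BiP, differed by -0.14, with 12.90 in HP and 13.04 in NP. NP was above all 4 high sucrose arrays for 19 of the 30 genes, Derl3, Creld2, Hyou1 and Hspa5 among them. The list's medians were -0.08 on high sucrose and 0.05 with high fat.

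The ER stress response element, searched on both strands as CCAAT, any 9 bases and CCACG, was in 8 of the 24 promoters found for these members, 33.3%, against 0.0657% of all 33469; it contains the shorter CCAAT box. Members with it had a median of -0.18 and the 16 without it of -0.15. The promoters of Derl3 and Creld2, the members past 1.5-fold, and of Hspa5, for which the element is known, are shown as above with the element in capitals. They lie at chr20:12766466-12766715 on the minus strand (Derl3), chr7:121789134-121789383 on the plus strand (Creld2) and chr3:38452766-38453015 on the plus strand (Hspa5). The match is on the opposite strand in Derl3 and Creld2.
Derl3: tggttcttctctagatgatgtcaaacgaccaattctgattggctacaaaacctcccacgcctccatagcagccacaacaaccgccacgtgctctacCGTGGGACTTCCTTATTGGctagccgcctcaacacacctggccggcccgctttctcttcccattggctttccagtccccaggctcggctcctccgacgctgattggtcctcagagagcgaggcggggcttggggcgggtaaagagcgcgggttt
Creld2: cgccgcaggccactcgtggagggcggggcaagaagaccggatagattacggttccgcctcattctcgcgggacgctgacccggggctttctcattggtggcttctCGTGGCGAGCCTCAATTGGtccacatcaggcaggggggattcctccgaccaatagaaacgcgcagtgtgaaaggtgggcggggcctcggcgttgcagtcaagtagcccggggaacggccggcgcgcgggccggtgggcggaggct
Hspa5: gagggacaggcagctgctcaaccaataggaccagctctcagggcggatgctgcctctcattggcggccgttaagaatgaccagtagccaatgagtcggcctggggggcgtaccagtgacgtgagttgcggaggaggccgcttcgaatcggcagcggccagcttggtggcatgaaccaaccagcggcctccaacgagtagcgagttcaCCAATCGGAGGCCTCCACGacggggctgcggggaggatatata

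For the cholesterol enzymes, the motif of the sterol regulatory element (TCAC, any base and CCAC) was in 0 of 15 promoters found, against 1.12% of all, and CCAAT was in 12 of 15, 80%, against 37.5% of all. At a share of 1.12%, no match among 15 promoters is the usual outcome, so it does not show that these enzymes lack the element. Only this 1 string was searched, and Sqle had no entry. The 12 enzymes with CCAAT had a median difference of 0.11, and the 3 without it of 0.54. With 3 genes on the latter side, and Sqle, the largest difference of the list, on neither, these medians are a description.

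**Figure D3:**
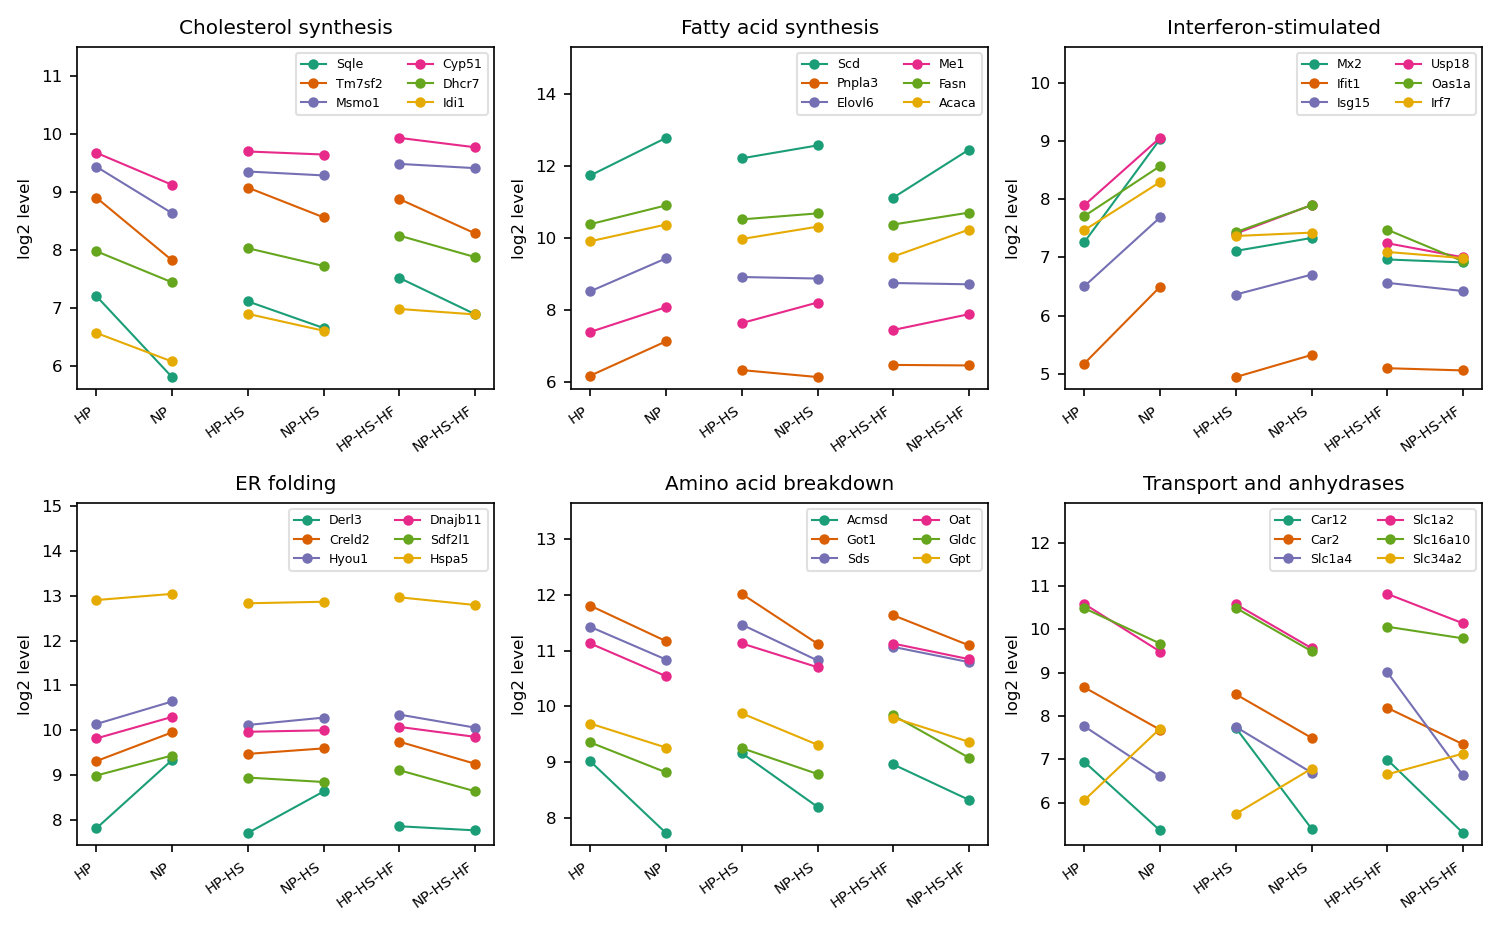
Log2 level (vertical axis) of 6 genes each of cholesterol synthesis, fatty acid synthesis, the interferon response, ER folding, amino acid breakdown, and transport and carbonic anhydrases, 1 panel per group, on each of the 6 arrays (horizontal axis: high protein left of normal protein within each background), 1 line per gene and 1 pool of 5 rats per point. In NP all 6 cholesterol genes are at their lowest and all 6 interferon and all 6 ER genes at their highest, as Msmo1 at 8.63 and Mx2 at 9.03 show.

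The integrated stress response, which shuts down general translation and induces amino acid synthesis and transport genes when amino acids run short, had 2 of 21 genes lower by 1.5-fold or more, and 4 lower and 1 higher by 1.2-fold or more. The share of all named genes lower by 1.5-fold or more was 0.42%. Fgf21, a liver hormone induced by protein shortage, had 6.41 in HP and 7.13 in NP, 1.66-fold lower in HP. Atf5, a transcription factor of the response, had 9.59 in HP and 10.18 in NP, 1.51-fold lower. Nupr1 was at -0.54, Asns, asparagine synthetase, at -0.26 and Trib3 at 0.15. The 1 member higher by 1.2-fold or more was Chac1, at 0.31. The list had a median of -0.06 on low fat, -0.03 on high sucrose and 0.03 with high fat.

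Fatty acid oxidation and other targets of PPAR alpha had 26 of 33 genes below 0, 7 lower by 1.2-fold or more and none higher, with a median of -0.12. Fgf21, given above, is counted in this list too. Vnn1, a pantetheinase, had 8.11 in HP and 9.29 in NP, 2.28-fold lower in HP, and was lower by 1.195 and 1.08 on high sucrose and with high fat. Cyp4a8 (-0.55), Decr1 (-0.46) and Eci1 (-0.35), which act in fatty acid hydroxylation and the oxidation of unsaturated fatty acids, followed, and Crot, the peroxisomal carnitine octanoyltransferase and a member of no list, was at -0.64. Cpt1a, which admits fatty acids to mitochondria, was at 0.15. Here HP was below all 4 high sucrose arrays for 12 of the 33 genes and above them for 1, and NP was above them for 9. The list's medians were -0.05 on high sucrose, with 9 of 33 above 0, and -0.005 with high fat, with 16 above 0. Cyp4a8 was at 0.41 on high sucrose and -0.87 with high fat, and Decr1 at -0.42 and -0.41.

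Genes of bile acid, steroid, retinoid and drug metabolism differed singly. Cyp7b1, an oxysterol hydroxylase, had 8.22 in HP and 7.41 in NP, 1.74-fold higher, while Nr0b2, the repressor SHP, had 9.41 in HP and 10.10 in NP, 1.62-fold lower in HP, and Slco1a4, an organic anion carrier, had 9.70 in HP and 10.42 in NP, 1.65-fold lower. Cyp7a1, the rate-limiting enzyme of bile acid synthesis, had 12.68 in HP and 12.41 in NP. Cyp17a1, a steroid hydroxylase, had 8.54 in HP and 9.34 in NP, 1.75-fold lower.

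Aldh1a1, which makes retinoic acid, had 7.42 in HP and 9.07 in NP, 3.12-fold lower, whereas Adh6 and Bco2, which cleaves carotenoids, were higher by 0.67 and 0.62. Cyp2b2 had 9.08 in HP and 10.36 in NP, 2.42-fold lower; its close copy Cyp2b1, from which a probe set may not tell it apart, was at -0.29. None of the rest of the 33 cytochromes P450 of families 1 to 3 that were kept was past 1.5-fold. Slc34a2, a phosphate carrier, had 6.05 in HP and 7.71 in NP, 3.15-fold lower, Ly6al had 5.87 in HP and 7.28 in NP, 2.65-fold lower, and Inhba, a subunit of activin, had 7.27 in HP and 8.38 in NP, 2.16-fold lower. Trim80 was at -0.95 and Mrgprx3 at -0.80.

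Genes for core machinery hardly differed. Among 67 ribosomal proteins, 37 proteasome subunits and 73 subunits of oxidative phosphorylation, none was past 1.5-fold, and the medians were -0.02, 0.01 and -0.005. Only 1.06% of all named genes were past 1.5-fold, so the absence of such a gene says little. At 1.2-fold or more each of these lists had 1 gene higher and 1 lower, where 5.93% and 4.26% of all genes were. The growth hormone axis, iron handling, lipid droplet and lipoprotein lists had medians between -0.01 and 0.02, with none past 1.5-fold. Their largest differences were those of Cyp2c12 at 0.55, Apoa4 at -0.50 and Hmox1 at 0.50. Immediate early genes were mixed: 5 of 23 were higher and 2 lower by 1.2-fold or more, with Plk3 at 0.86, Egr1 at 0.55, Fos at 0.53 and Klf10 at -0.36. Of 25 acute phase genes, 4 were higher by 1.2-fold or more and none lower: Mt1, a metallothionein (13.17 in HP, 12.35 in NP), Mt2A at 0.44, Socs3 at 0.38 and A2m at 0.49. A2m was lower by 0.98 on high sucrose and by 0.87 with high fat.

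**Figure D4:**
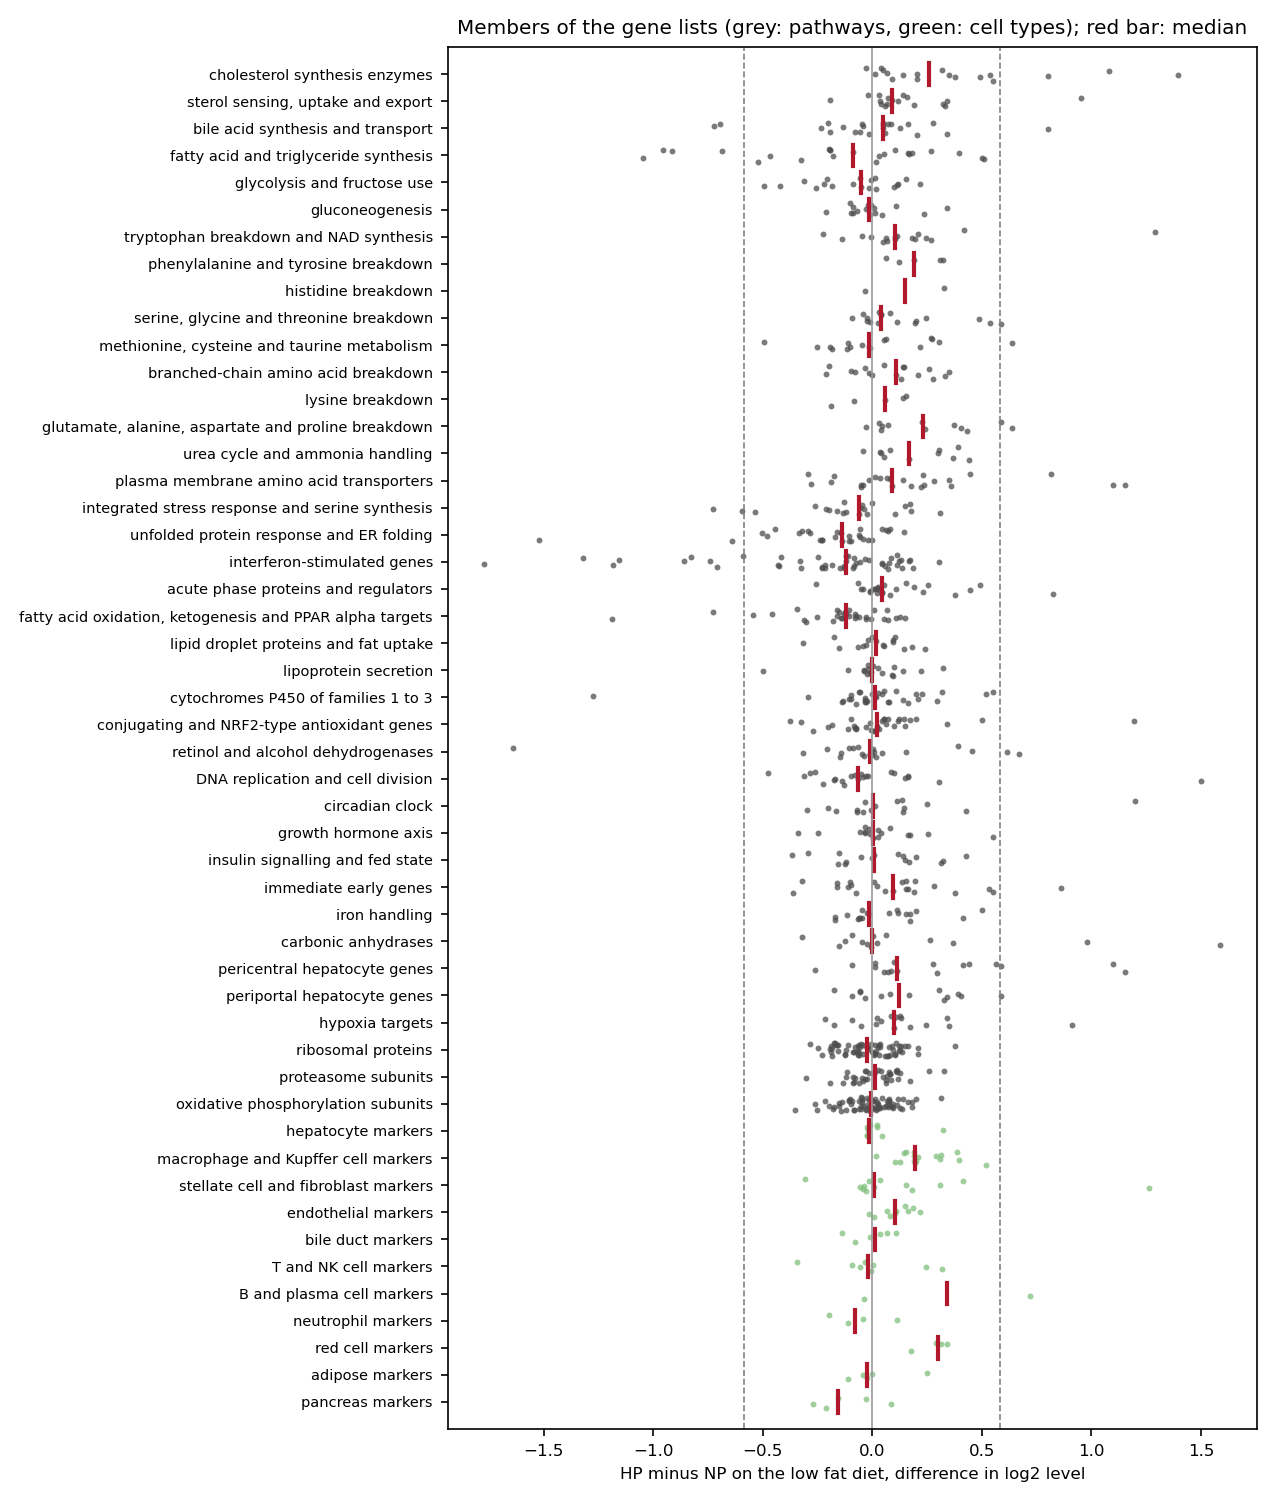
Log2 difference HP minus NP on the low fat diet for the members of each gene list (rows), 1 point per gene, with pathways in grey and cell types in green. A red bar marks the median of each list, a line marks 0, and dashed lines mark 1.5-fold. The median of cholesterol synthesis lies at 0.26, that of glutamate, alanine, aspartate and proline breakdown at 0.23, and that of ER folding at -0.14.

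Markers of the liver's cell types were read beside these results. The 10 hepatocyte markers had a median of -0.02 and a log2 summed level of 16.48 in HP and 16.47 in NP. All 17 macrophage and Kupffer cell markers kept (of 18 on the array) were above 0, with 6 higher by 1.2-fold or more, among them Cd5l at 0.52, Cd163 at 0.40 and Aif1 at 0.39. Their log2 summed level was 12.73 in HP and 12.52 in NP, within the range of 12.52 to 12.78 of the other arrays, and C1qa was at 0.01. All 4 red cell markers were above 0, with a summed level of 11.92 in HP and 11.61 in NP, the highest and the lowest of the 6 arrays. Most of that sum came from Hbb (11.20 in HP, 10.89 in NP) and Hbb-b1 (10.20 in HP, 9.87 in NP). These are related globin genes that their probe sets may not tell apart. Endothelial markers, 9 of 10 above 0, had a median of 0.10, and the stellate cell and fibroblast markers, with Lox among them, of 0.01. T and NK cell markers (8 kept), bile duct (6), neutrophil (4) and adipose markers (5) had medians between -0.08 and 0.01. Pancreas markers (5) had -0.16, and of the 2 B and plasma cell markers kept, Jchain was at 0.72 and Cd79b at -0.04. The part of these cell types in the differences above was not tested.

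Of the 73 named genes higher by 1.5-fold or more on low fat, 29 were also that much higher on high sucrose (39.7% of the 73 and 47.5% of the 61 on high sucrose), 26 with high fat (35.6%, and 36.1% of 72), and 18 on all 3 backgrounds. Besides Car12, Spsb4, Mcm10, Acmsd, Plppr1, Mmd2, Noct, Slc1a4, Slc1a2, Car2 and Cyp7b1, these were Slc25a21, Egln3, Pvr, Trim36, Wsb1, Adh6 and Vom2r44. Egln3, an oxygen-sensing prolyl hydroxylase, had 7.09 in HP and 6.18 in NP, and Slc25a21, a mitochondrial carrier of oxodicarboxylates in lysine and tryptophan breakdown, had 7.29 in HP and 6.35 in NP. Of the 48 lower genes, 13 were also that much lower on high sucrose (27.1%, and 33.3% of 39), 15 with high fat (31.2%, and 28.8% of 52), and 8 on all 3: Vnn1, Inhba, Cyp17a1, Slco1a4, B3galt1, Reg4, Arrdc3 and Nuak1. Over all probe sets, unnamed ones included, repeats were a smaller share: of the 151 higher, 48 (31.8%) were that much higher on high sucrose, 40 (26.5%) in the HS-HF pair and 23 (15.2%) in both, and of the 131 lower, 18 (13.7%), 21 (16.0%) and 10 (7.63%) were that much lower. Of those 131, 10 were higher by 1.5-fold or more on high sucrose.

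A further 12 higher and 10 lower genes were past 1.5-fold on low fat and under 1.2-fold on both other backgrounds. The higher ones include Msmo1, Slc13a2, Bco2 and Scnn1a, an epithelial sodium channel subunit (7.58 in HP, 6.74 in NP). The lower ones include Mx2, Mx1, Irf7, Pnpla3, Elovl6, Gpat3, Crot and Atf5. Among the 12 higher genes, HP was above all 4 high sucrose arrays for 8 and NP below them for 9. Among the 10 lower genes, HP was below those arrays for 6 and above them for 1 (Irf7), and NP was above them for all 10. These genes were picked for a difference that is large on low fat and small elsewhere, which favours such places for both arrays.

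Where a gene was past 1.5-fold, NP more often than HP was the array outside the rest. Of the 73 higher genes, NP alone lay outside the range of the 4 high sucrose arrays for 29, HP alone for 15 and both for 17. Of the 48 lower genes, NP alone lay outside for 25, HP alone for 5 and both for 9. Over all 11421 genes the same counts were 2459 for NP, 2068 for HP and 1894 for both. These 4 arrays differ from HP and NP in the background diet, so they are no controls for either.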

How the data were processed

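Liver RNA of 6 pools was measured on Affymetrix whole-transcript arrays, and per the labels the RNA was extracted with TRIzol and 100 ng was labelled. The deposited values are log2 expression per probe set, which the authors made with RMA, the robust multi-array average, as the submitters' processing notes say. The version of RMA is not given in the sources used, and quantile scaling, usually a part of RMA, hides a global difference between arrays. They range from 2.40 to 13.92 over 29214 probe sets, of which 15633 are in the platform annotation and 15310 have 1 symbol; by Entrez number 15279 of these were found in RefSeq, and 0 symbols had to be updated. No probe set with several symbols (323) was named, and 13581 are unnamed here.

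HP minus NP was taken on these values with no further normalization, in Python 3.11.15 with pandas 2.3.3 and numpy 2.4.6, for the 20450 probe sets whose mean over the 6 arrays was above the 30th percentile. A gene stands for its probe set with the highest mean. The scripts were tested on simulated data. The text names the 20 largest differences in each direction, genes past 1.5-fold, and up to 4 members with the largest differences of each of 50 gene lists, together with members named for their role. Some genes with a small difference, such as Cps1, Cpt1a, Axin2 and Hspa5, were named after their values were seen. The genes and lists were chosen with earlier results of these data known. A count by fold is a description, with no p-value, and the number of arrays limits the precision. Alternatives were other filters, thresholds, probe set rules, centring, and a loess curve (statsmodels 0.14.6) over the level.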

Additional observations from a re-analysis of the deposited data

Results flagged for a closer look

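Each named gene past 1.5-fold between HP and NP on the low fat background and at least 1.2-fold the opposite way in another pair of arrays is given here. The difference between backgrounds was not tested, because each rests on 1 pair of pools. Against high sucrose with high fat, Creld2 was at -0.64 on low fat and 0.49 there, Oas1a at -0.86 and 0.54, Ly6al at -1.40 and 0.65, Upp2, a uridine phosphorylase, at 1.05 and -0.51, Jchain, of plasma cells, at 0.72 and -0.40, Slc44a4 at 0.66 and -0.30, and Xpa, a DNA repair protein, at 0.63 and -0.27. The strongest reversal of a higher gene was that of Gpm6a, a membrane glycoprotein, at 0.78 on low fat and -1.09 with high fat. On high sucrose several of these had the sign they had on low fat: Ly6al was at -1.41, Oas1a at -0.46, Creld2 at -0.12, Upp2 at 0.87, Xpa at 0.35 and Gpm6a at 0.17.

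Against high sucrose, Tmod1, an actin-capping protein, was at 1.26 on low fat and -0.34 there, Slc2a12, a glucose transporter, at 0.82 and -0.28, Rab9a, of endosome traffic, at 0.75 and -0.32, and Rfc4, of the clamp loader in DNA replication, at -0.80 and 0.31. Cfap126 was at 0.59 on low fat, and at -0.42 on high sucrose and -0.51 with high fat. No diet has the 4 arrays that a search for an outlying sample needs.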

How the results depend on the processing

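The number of probe sets past 1.5-fold, 282 (151 higher, 131 lower), depends on the filter and the threshold. With no filter on low values it was 478 (248 higher, 230 lower). With the filter at the 50th percentile it was 195, of which 82 were lower. At 1.3-fold it was 1041 (524 higher, 517 lower), at 2-fold 42 (23 higher, 19 lower), and over named genes alone 121 (73 higher, 48 lower). With a loess curve over the level removed it was 281 (154 higher, 127 lower). The share of higher among these calls was 53.5%, and between 50.3 and 60.3% under the alternatives.

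Of 250 alternative medians of the 50 gene lists, 249 moved by less than 0.1, and 12 turned sign, nearly all of them medians close to 0; the exception to the first was the B and plasma cell markers, which had 2 members kept and a median of 0.34, and -0.0385 without the filter, which adds Ms4a1. Of 808 alternative values of 202 named genes none turned sign and 807 moved by less than 0.193; for Mt2A the probe set with the lowest mean gave 0.74, in place of 0.44. Centring on the median moved differences by 0.0024 and the loess curve by at most 0.0203. No paired analysis was possible because the low fat difference is a single pair of arrays; pairing by background would average the 3 backgrounds, which is another quantity and was not fitted. Without replicates no setting gives an error, and a difference near the 1.5-fold line carries no more weight than a close one on its other side.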

Other observations

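The largest difference of any probe set belonged to one with no gene name here, 10801973, at 8.69 in HP and 6.45 in NP, a difference of 2.24. It was at 8.23 in HP-HS and 7.55 in NP-HS, and at 7.11 in HP-HS-HF and 8.60 in NP-HS-HF, so its sign was the opposite on the high sucrose high fat background (-1.49). Probe set 10700957, also unnamed here, was at 6.94 in HP and 5.35 in NP, and lay between 5.17 and 5.76 on the 4 high sucrose arrays. Probe set 10700953 was at 4.42 in HP and 6.15 in NP, and was 0.71 higher in HP-HS than in NP-HS.

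Of the 121 named genes past 1.5-fold, 5 had a further probe set above the level filter. All 5 further probe sets had the same sign, and 3 were past 1.5-fold themselves, those of Insig1 (0.89) and Mt1 (0.79) among them.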
